A study of Macaca mulatta with 6 samples.

Results

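The genes described here encode enzymes that add or remove methyl groups on histones and DNA, enzymes that remove acetyl groups from proteins, and the PRDM factors, which share a domain related to that of histone methyltransferases. They were chosen by symbol: every listed gene whose name starts with KDM, KMT, HDAC, SIRT, DNMT, TET, SETD or PRDM followed by a digit, together with EZH1, EZH2, EED, SUZ12, EHMT1, EHMT2, SUV39H1 and SUV39H2. The rule found 77 of the 17795 genes in the table and used no measured value. Of these, 72 passed the filter on low counts and were tested, 3 had counts too low for the filter, and PRDM9 and PRDM13 had no count in any library.

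Bulk RNA sequencing was performed on male rhesus monkey (Macaca mulatta) material that the labels call testis. The methods of the study describe cultures of spermatogonial stem cells (SSCs), the stem cells of the male germ line, in droplets of basement membrane extract under a medium with GDNF, EGF, LIF, bFGF, Wnt3a and serum. Of the 6 libraries, 3 had platelet-derived growth factor in that medium (PDGF-treated) and 3 lacked it (PDGF-free), and each group has its replicate 1 in batch 1 and its other replicates in batch 2 by the labels. The age and number of donor animals, the days in culture, and whether replicates are separate cultures are not given in the sources used here, so the p-values measure only the spread between these libraries.

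DNA methyltransferases place methyl groups on cytosine, and the TET enzymes oxidize them as a step towards removal. Histone lysine methyltransferases and demethylases act on residues that mark active or silent chromatin, histone deacetylases (HDACs) and the NAD-dependent sirtuins remove acetyl groups, and many of these enzymes work as subunits of corepressor or Polycomb complexes. During germ cell development these marks are erased and rewritten, and several enzymes of the group are required for spermatogenesis in mice. TET enzymes and the JmjC-type KDM demethylases need oxygen, iron and 2-oxoglutarate.

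Total counts ranged from 10593805 to 14102697 per library. The chosen genes together took 0.356% to 0.363% of the counts in the PDGF-treated libraries and 0.337% to 0.356% in the PDGF-free libraries. The labelled cell type was checked against its markers. Of 8 spermatogonial markers 5 were analysed: ID4 was abundant, at 127 to 135 CPM (counts scaled by TMM library size) with PDGF and 148 to 177 CPM without, whereas GFRA1 and ZBTB16 had at most 9 counts in any library. DDX4, a marker of germ cells in general, had 9, 2 and 2 counts in the PDGF-treated and 18, 38 and 13 in the PDGF-free libraries (log2 fold change -2.72, standard error [SE] 0.68, edgeR BH-adjusted p = 0.0284). FGFR3 was at 7.16, 16.3 and 17.8 CPM with PDGF and 25.9, 65.8 and 81.8 CPM without. It was also called lower (log2 fold change -2.07, SE 0.47, edgeR BH-adjusted p = 0.0189). The summed level of the 6 mesenchymal markers, such as collagens, was 13462 to 18904 CPM with PDGF and 15984 to 18403 CPM without. Of the 6, 3 had positive and 3 negative log2 fold changes, from -1.07 for COL3A1 to 0.60 for COL1A1. COL3A1 alone was called (edgeR BH-adjusted p = 0.00042), so the sum hides opposite differences. Of the spermatogonial markers, 2 were thus near 0 in all 6 libraries, while mesenchymal genes were abundant. The summed level of the 4 spermatid markers analysed was 48.7 to 76.7 CPM with PDGF and 416 to 689 CPM without, that of the 4 peritubular markers 147 to 158 CPM against 337 to 378 CPM, and that of the 5 spermatogonial markers 135 to 152 CPM against 177 to 260 CPM. ACTA2 made up most of the peritubular sum, at 134 to 146 CPM with PDGF and 300 to 328 CPM without. ACTA2 and DES were called lower, while MYH11 and CNN1 were not called (edgeR BH-adjusted p = 0.601 and 0.134). ID4 made up most of the spermatogonial sum and was not called (edgeR BH-adjusted p = 0.122). The summed levels moved with PDGF, and their part in the results below was not tested. In bulk libraries, fewer cells of a type and less RNA per cell cannot be told apart.

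To examine whether PDGF altered these chromatin genes, counts were normalized by TMM and compared with edgeR's quasi-likelihood test over 11539 genes, with Benjamini-Hochberg (BH) adjustment and a threshold of 0.05. PRDM1, HDAC11, SETD6, DNMT3A and KDM5D fell with PDGF, and TET3 and SETD3 rose. These were 7 of the 72 tested genes, or 9.72%, where 18.3% of all tested genes were called. Genes called higher were 2 of 72 against a background of 7.61%, and genes called lower were 5 of 72 against 10.7%. The median log2 fold change of the 72 genes was 0.08 and that of all tested genes 0.02, with 58.3% positive values among the former and 51.4% among the latter. The median size of the change was 0.22 on the log2 scale, against 0.35 over all genes, and 3 of the 72 changes reached an absolute log2 fold change of 1. An unadjusted p under 0.05 was found for 18 of the 72. The share of all tested genes at that level is not given here, so this count has no background to be read against.

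Libraries with the same number share a batch and deviated together, so the replicate number was entered as a block in a further fit. With the block, 23 of the 72 genes were higher and 15 lower with PDGF, where 31.1% of all genes were higher and 29% lower. The share of the 72 genes called was 9.72% against 18.3% without the block. With the block it was closer to the background, at 52.8% against 60.1%. In CPM, the groups did not overlap for 15 genes that were higher with PDGF and 10 that were lower, or 34.7% of the 72, where 18.2% and 19.3% of all tested genes did the same. DESeq2 called the same 7 genes and 3 more, SETD5, SETD7 and SUV39H1, against a background of 21.2%. With replicates 2 and 3 of each group summed to 1 library, PRDM1 alone of the 7 was called, where 5.78% of all genes were.

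**Figure D1:**
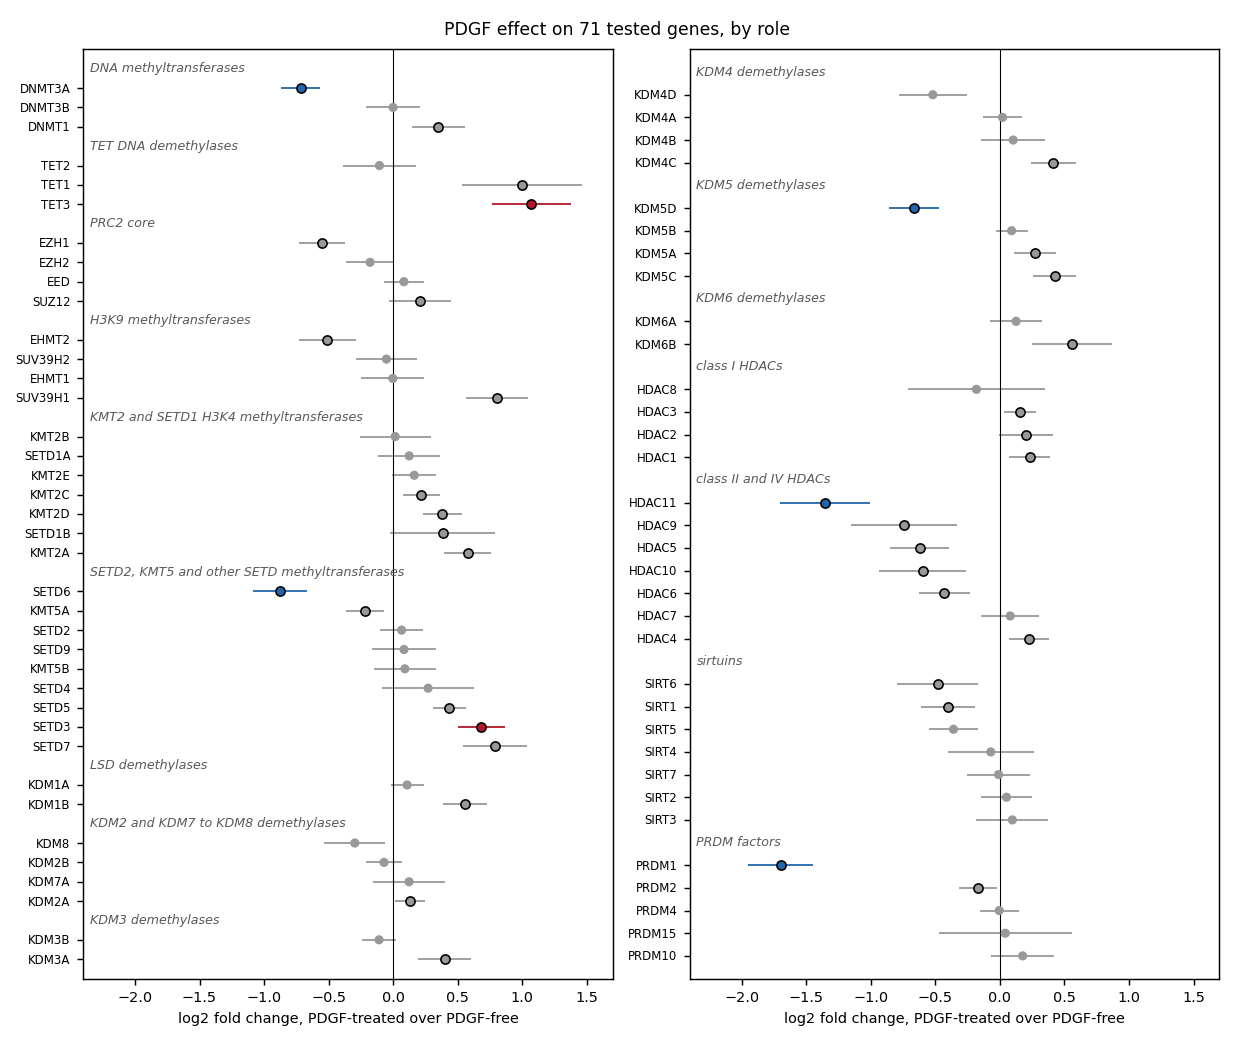
Log2 fold change of 71 of the 72 tested genes (PDGF-treated over PDGF-free, edgeR, horizontal axis) with SEs as bars, grouped by role. Red marks the 2 genes called higher, blue the 5 called lower and grey the rest, and a black outline marks the 38 genes called with the replicate block; most points lie close to 0, and PRDM1 at -1.70 lies farthest from it.

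PRDM1 (BLIMP1), a transcriptional repressor that directs primordial germ cell specification and plasma cell differentiation, fell the most. It was at 13.4, 9.85 and 8.49 CPM in PDGF-treated replicates 1, 2 and 3 and at 41.9, 35.5 and 25.9 CPM in the PDGF-free replicates. Every PDGF-treated library lay below every PDGF-free one, and replicate 1 was the highest of its group in both. The log2 fold change was -1.70 (SE 0.25, edgeR BH-adjusted p = 0.00323), a level 3.25-fold lower with PDGF, with differences of -1.64 in batch 1 and -1.73 in batch 2. The call held with each library left out in turn (edgeR BH-adjusted p of 0.00227 to 0.018) and with replicates 2 and 3 summed (0.0335). Of the other PRDM factors, PRDM2, PRDM4, PRDM10 and PRDM15 were tested and not called, with log2 fold changes between -0.17 and 0.18. PRDM2, also known as RIZ, was at 52.2 to 65.2 CPM with PDGF and 61.6 to 68.6 CPM without and was called lower with the block (log2 fold change -0.17, edgeR BH-adjusted p = 0.0471). PRDM9, which positions meiotic recombination in spermatocytes, and PRDM13 were at 0 in all 6 libraries. PRDM11 had 14 counts over the PDGF-treated and 16 over the PDGF-free libraries, a ratio of 0.702 (exact Clopper-Pearson 95% interval 0.317 to 1.53, counting error only), which spans equal levels at this depth. PRDM16 had 1 and 2 counts (ratio 0.401, interval 0.00680 to 7.71). PRDM14 was not analysed here.

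Among the DNA methyltransferases DNMT3A fell and no other was called without the block, where 18.3% of all genes were. DNMT3A, a de novo methyltransferase, was at 29.8, 34.3 and 30.1 CPM with PDGF and 46.3, 53.0 and 55.5 CPM without. The groups stood well apart, with a small spread in each (31.4 ± 2.56 against 51.6 ± 4.72 CPM, SD, n = 3). The log2 fold change was -0.72 (SE 0.15, edgeR BH-adjusted p = 0.0145), with differences of -0.64 in batch 1 and -0.75 in batch 2. The call was lost without PDGF-treated replicate 3 (edgeR BH-adjusted p = 0.073) and without PDGF-free replicate 2 (0.0642) or 3 (0.069), and with replicates 2 and 3 summed (0.198). DNMT1, which copies methylation onto newly replicated DNA, was at 101, 139 and 144 CPM with PDGF and 77.4, 115 and 109 CPM without. Each PDGF-treated library was above its PDGF-free counterpart, but the groups overlapped because both batch 1 libraries were lower. Its log2 fold change was 0.35 (edgeR BH-adjusted p = 0.274), and with the block it was called higher (edgeR BH-adjusted p = 1.9e-05). DNMT3B, the other de novo enzyme, was at 7.43, 7.12 and 6.99 CPM in the PDGF-treated and 6.08, 7.47 and 8.03 CPM in the PDGF-free replicates, and its log2 fold change was 0.00, a value whose sign depended on the setting. DNMT3L, a germ cell cofactor of the de novo enzymes, had 6 counts in PDGF-treated replicate 3 and 0 in the other 5 libraries. The exact 95% interval of its ratio reached down to 0.945, so equal levels lay within it.
Per exonic base, the counts of DNMT3A were 0.159, 0.132 and 0.112 times those of DNMT1 in the PDGF-treated replicates and 0.321, 0.248 and 0.272 times in the PDGF-free ones, so the ratio was lower in every PDGF-treated library. The same per-base ratio of DNMT3A to DNMT3B was 1.55, 1.86 and 1.66 with PDGF and 2.94, 2.74 and 2.67 without, again without overlap.

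TET3 rose with PDGF. It was at 7.83, 14.3 and 11.7 CPM in the PDGF-treated and 3.94, 5.27 and 6.96 CPM in the PDGF-free replicates, with replicate 1 the lowest of both groups. The log2 fold change was 1.07 (SE 0.30, edgeR BH-adjusted p = 0.0453), with 0.98 in batch 1 and 1.09 in batch 2. Of the fits with 1 library left out, the one without PDGF-treated replicate 1 kept the call (edgeR BH-adjusted p = 0.0185) and the other 5 gave 0.0561 to 0.143. The call was also lost when 10 counts were required in every library (0.0602) and with replicates 2 and 3 summed (0.193). TET1 had far fewer counts, 57, 26 and 48 with PDGF and 10, 15 and 26 without. PDGF-treated replicate 2 and PDGF-free replicate 3 had the same 26 counts, and the log2 difference was 2.17 in batch 1 and 0.48 in batch 2. Its log2 fold change of 1.00 (SE 0.46) was not called (edgeR BH-adjusted p = 0.174), whereas with the block it was called higher (0.0346). TET2, the most abundant of the 3 by counts, was at 48.5, 29.0 and 31.9 CPM with PDGF and 54.9, 30.8 and 32.1 CPM without, a log2 fold change of -0.11 (edgeR BH-adjusted p = 0.824) within the replicate spread. TET2 therefore took 80.6%, 64.0% and 67.6% of the TET counts in the PDGF-treated and 92.0%, 82.1% and 77.2% in the PDGF-free replicates, lower with PDGF within each batch but overlapping between groups.

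**Figure D2:**
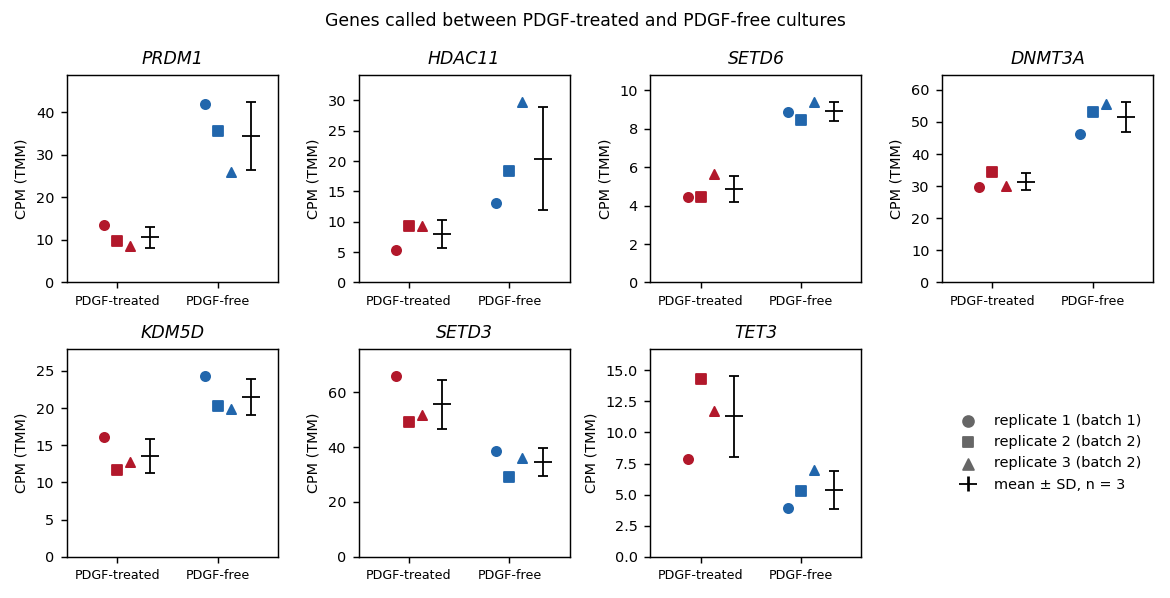
Level in CPM after TMM normalization (vertical axis, from 0) of the 7 called genes in each library, with symbols for the replicates and the group mean ± SD (n = 3) beside them. PDGF-treated (red) and PDGF-free (blue) libraries do not overlap for any of the 7. In CPM, SETD3 with PDGF (55.7 ± 9.04 CPM) and HDAC11 without PDGF (20.4 ± 8.54 CPM) have the widest spreads. Relative to the mean, TET3 with PDGF (11.3 ± 3.26 CPM) and PRDM1 without PDGF (34.4 ± 8.07 CPM) spread more than SETD3.

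Among the histone deacetylases HDAC11 alone was called without the block, where 18.3% of all genes were. HDAC11, the single class IV enzyme, was at 5.33, 9.31 and 9.32 CPM with PDGF and 13.1, 18.4 and 29.8 CPM without. PDGF-free replicate 3 stood highest, and the batch 1 library was lowest in both groups. It fell with a log2 fold change of -1.35 (SE 0.35, edgeR BH-adjusted p = 0.0312), and the differences were -1.29 in batch 1 and -1.33 in batch 2. Without PDGF-free replicate 1 the edgeR BH-adjusted p was 0.00695, and in the other 5 fits with 1 library left out it was 0.0575 to 0.105, so the call was lost there, as it was with replicates 2 and 3 summed (0.137).
Of the 6 class II enzymes none was called without the block, where 10.7% of all genes were lower, and 4 had negative log2 fold changes. HDAC5 was at 58.8, 95.2 and 85.0 CPM with PDGF and 93.0, 134 and 141 CPM without, a log2 fold change of -0.62 (SE 0.23, edgeR BH-adjusted p = 0.0977). HDAC10, a polyamine deacetylase, was at 20.6, 38.9 and 34.8 CPM with PDGF and 27.3, 58.6 and 56.9 CPM without (log2 fold change -0.60, edgeR BH-adjusted p = 0.253). HDAC6, a mainly cytoplasmic tubulin deacetylase, had a log2 fold change of -0.43 (edgeR BH-adjusted p = 0.169), with 21.3 to 33.1 CPM with PDGF and 36.1 to 40.7 CPM without. HDAC9 had one of -0.74 (edgeR BH-adjusted p = 0.245) from 33 to 89 and 39 to 112 counts. Within each group the batch 1 values of HDAC5 and HDAC10 were lower than those of batch 2, and the groups overlapped. For both genes each PDGF-treated library was still below the PDGF-free libraries of its batch. With the block these 4 enzymes and HDAC11 were called lower, where 29% of all genes were (edgeR BH-adjusted p of 1.9e-08 for HDAC5, 1.5e-05 for HDAC10, 8.0e-04 for HDAC6, 0.0297 for HDAC9 and 3.5e-07 for HDAC11). The 2 exceptions were HDAC4 (log2 fold change 0.23), higher with the block at an edgeR BH-adjusted p = 0.0392, and HDAC7 (0.08), which was not called with it. Summed over classes II and IV, levels were 262, 373 and 376 CPM with PDGF and 317, 451 and 456 CPM without, lower within each batch.

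HDAC1, HDAC2 and HDAC3, the class I catalytic subunits of the NuRD, SIN3, CoREST and NCoR corepressors, were not called without the block. HDAC2 was at 351, 250 and 240 CPM with PDGF and 305, 223 and 204 CPM without, so batch 1 was higher in both groups and the PDGF difference was small (log2 fold change 0.20, edgeR BH-adjusted p = 0.540). HDAC1 was at 94.2 to 99.0 CPM with PDGF and at 99.0, 76.0 and 72.2 CPM without (log2 fold change 0.23, edgeR BH-adjusted p = 0.348). Its difference was 0.00 in batch 1 and 0.37 in batch 2. HDAC3 was at 126, 138 and 136 CPM with PDGF and 120, 115 and 124 CPM without (log2 fold change 0.16, edgeR BH-adjusted p = 0.409), which did not overlap. With the block all 3 were called higher, where 31.1% of all genes were, at edgeR BH-adjusted p of 0.00687 for HDAC1, 6.8e-04 for HDAC2 and 0.0224 for HDAC3. HDAC8 had the same counts as CITED1 in every library, 9 to 26, so its reads cannot be assigned to it alone. The 7 sirtuins gave no call in the first fit, where 18.3% of all genes were called. SIRT1, a nuclear deacetylase, was at 30.8, 22.9 and 22.2 CPM with PDGF and 41.3, 30.8 and 28.2 CPM without (log2 fold change -0.40, edgeR BH-adjusted p = 0.224). SIRT6 had a log2 fold change of -0.48 (edgeR BH-adjusted p = 0.322). With the block SIRT1 (edgeR BH-adjusted p = 0.00162) and SIRT6 (0.00153) were called lower, where 29% of all genes were. The mitochondrial SIRT3, SIRT4 and SIRT5 had log2 fold changes of 0.10, -0.07 and -0.36, and SIRT2 and SIRT7 of 0.05 and -0.01.

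Polycomb repressive complex 2 (PRC2) methylates histone H3 at lysine 27 and is built on EED, SUZ12 and one of the catalytic subunits EZH1 and EZH2. None of the 4 was called in the first fit, where 18.3% of all genes were. EZH1 was at 16.1, 17.4 and 18.3 CPM with PDGF and 24.3, 30.2 and 21.6 CPM without, which did not overlap (log2 fold change -0.55, SE 0.18, edgeR BH-adjusted p = 0.0701), and it was lower with the block (edgeR BH-adjusted p = 7.9e-04). EZH2 was at 24.9 to 30.7 CPM with PDGF and 25.5 to 36.3 CPM without (log2 fold change -0.18, edgeR BH-adjusted p = 0.535, or 0.164 with the block). EED had a log2 fold change of 0.08 (edgeR BH-adjusted p = 0.742). SUZ12 was at 105, 72.6 and 67.3 CPM with PDGF and 91.7, 63.2 and 56.8 CPM without (log2 fold change 0.21, edgeR BH-adjusted p = 0.579), and it was higher with the block (0.00729).
For lysine 9 of histone H3, EHMT2 (G9a) was at 82.4, 126 and 134 CPM with PDGF and 129, 180 and 179 CPM without, below within each batch and overlapping between groups (log2 fold change -0.51, SE 0.22, edgeR BH-adjusted p = 0.147). With the block it was lower (edgeR BH-adjusted p = 7.5e-08). Its partner EHMT1 (GLP) was at 58.3 to 96.9 CPM with PDGF and 61.3 to 95.6 CPM without, a log2 fold change of 0.00 (edgeR BH-adjusted p = 0.995). SUV39H1, a heterochromatin methyltransferase, was at 7.16, 10.1 and 7.81 CPM with PDGF and 4.93, 5.46 and 3.92 CPM without, which did not overlap (log2 fold change 0.80, SE 0.24, edgeR BH-adjusted p = 0.0544, or 0.00334 with the block). Its paralog SUV39H2 had a log2 fold change of -0.05 (edgeR BH-adjusted p = 0.899). In the annotation of Mmul_10, 21.2% of the exonic bases of SUV39H1 overlap an uncharacterized gene on the opposite strand. Since the strand setting of the counting is not stated, reads of the 2 genes cannot be told apart within that overlap.

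The methyltransferases of the KMT2 (MLL) and SETD1 family, which act on lysine 4 of histone H3, showed a median of 0.22 on the log2 fold change scale, and none of the 7 was called, where 18.3% of all genes were. All 7 values were positive in the first fit, where 51.4% of all genes were, but KMT2B was at -0.0027 with the block, and KMT2C and KMT2E were at -0.12 and -0.07 with the further correction for GC content and length. KMT2A was at 19.9, 16.4 and 20.1 CPM with PDGF and 14.5, 11.7 and 11.6 CPM without (log2 fold change 0.58, SE 0.18, edgeR BH-adjusted p = 0.0654), and KMT2D was at 63.4, 74.3 and 71.7 CPM with PDGF and 48.9, 51.2 and 60.6 CPM without (log2 fold change 0.38, edgeR BH-adjusted p = 0.117). Neither gene overlapped between groups. With the block KMT2A (edgeR BH-adjusted p = 0.0011), KMT2C (0.00523), KMT2D (1.5e-04) and SETD1B (0.0111) were called higher, where 31.1% of all genes were. KMT2B had a log2 fold change of 0.02 and SETD1A of 0.12, and summed over the family the levels were 355, 411 and 415 CPM with PDGF and 320, 335 and 364 CPM without, which overlapped.
SETD3 and SETD6, enzymes known for substrates other than histones, were called in opposite directions. SETD3, an actin histidine methyltransferase, was at 66.0, 49.3 and 51.6 CPM with PDGF and 38.8, 29.0 and 36.2 CPM without, and it rose (log2 fold change 0.68, SE 0.18, edgeR BH-adjusted p = 0.0366). Within batches 1 and 2 the differences were 0.77 and 0.64. SETD6, which methylates the NF-kB subunit RELA, was at 4.46, 4.46 and 5.63 CPM with PDGF and 8.87, 8.43 and 9.41 CPM without, and it fell (log2 fold change -0.88, SE 0.21, edgeR BH-adjusted p = 0.0241). Both calls were kept with 1 library left out only in the fit without PDGF-free replicate 1 (edgeR BH-adjusted p = 0.0267 for SETD3 and 0.0319 for SETD6), and the other 5 fits gave 0.0663 to 0.133 for SETD3 and 0.0534 to 0.102 for SETD6. With replicates 2 and 3 summed they were lost at 0.198 and 0.169, and that of SETD3 was lost without normalization factors (0.0535) and with 10 counts required in every library (0.0502). Of the exonic bases of SETD6 in the annotation, 11.2% overlap CNOT1 on the opposite strand. SETD5 was at 74.5 to 77.4 CPM with PDGF and 54.4 to 59.3 CPM without (log2 fold change 0.44, SE 0.13, edgeR BH-adjusted p = 0.0508), and SETD7 at 13.7, 13.4 and 10.2 CPM against 8.13, 5.17 and 8.33 CPM (log2 fold change 0.79, edgeR BH-adjusted p = 0.0620). Both missed the threshold without overlap between groups, and both passed with the block (edgeR BH-adjusted p of 1.5e-05 and 0.00138). SETD2, which trimethylates lysine 36 of histone H3, had a log2 fold change of 0.06 (edgeR BH-adjusted p = 0.815). KMT5A, which monomethylates lysine 20 of histone H4, had one of -0.22 and was lower with the block (edgeR BH-adjusted p = 0.0114).

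Among the lysine demethylases KDM5D was called. KDM5D, the Y-linked member of a family that removes methyl groups from lysine 4 of histone H3, was at 16.1, 11.7 and 12.8 CPM with PDGF and 24.3, 20.2 and 19.9 CPM without. It fell with a log2 fold change of -0.66 (SE 0.19, edgeR BH-adjusted p = 0.0471), -0.59 in batch 1 and -0.71 in batch 2. The call was kept without PDGF-treated replicate 1 (edgeR BH-adjusted p = 0.028), and with any other library left out the edgeR BH-adjusted p was 0.0742 to 0.167. It was also lost without normalization factors (0.0787), without the count filter (0.0606) and with replicates 2 and 3 summed (0.292). Its X-linked homologue KDM5C was at 151, 199 and 197 CPM with PDGF and 116, 142 and 150 CPM without, a difference in the opposite direction (log2 fold change 0.42, SE 0.17, edgeR BH-adjusted p = 0.115, or 4.9e-07 with the block). KDM5C had 9.38, 17.0 and 15.4 times the counts of KDM5D in the PDGF-treated and 4.76, 7.05 and 7.52 times in the PDGF-free replicates. The 2 genes are close homologues, and how the counting treated reads that fit both is not stated. UTY, another Y-linked demethylase gene that the rule leaves out, was at 11.5 to 20.1 CPM with PDGF and 10.1 to 13.3 CPM without (log2 fold change 0.35, edgeR BH-adjusted p = 0.380).
The other 17 tested demethylases, KDM5C included, gave no call in the first fit, where 18.3% of all genes were called. Of the 17, 13 had positive log2 fold changes, where 51.4% of all genes did. With the further correction for GC content and length, KDM4A (-0.06), KDM5B (-0.12), KDM6A (-0.07) and KDM7A (-0.25) turned negative, and the other signs held. KDM1B, a flavin-dependent demethylase needed for maternal imprints in mouse oocytes, was at 23.5, 18.2 and 19.3 CPM with PDGF and 13.5, 14.2 and 13.9 CPM without (log2 fold change 0.55, SE 0.17, edgeR BH-adjusted p = 0.0596, or 0.00128 with the block). Its paralog KDM1A (LSD1) was at 129 to 145 CPM with PDGF and 117 to 133 CPM without (log2 fold change 0.11, edgeR BH-adjusted p = 0.594). KDM6B, which removes methyl groups from lysine 27 of histone H3, was at 24.3, 42.5 and 49.5 CPM with PDGF and 17.7, 29.3 and 31.9 CPM without, above within each batch (log2 fold change 0.56, edgeR BH-adjusted p = 0.247, or 5.4e-05 with the block). Its X-linked homologue KDM6A had a log2 fold change of 0.13 (edgeR BH-adjusted p = 0.70). KDM3A and KDM4C, lysine 9 demethylases, had log2 fold changes of 0.40 and 0.41 (edgeR BH-adjusted p of 0.223 and 0.134) and were higher with the block (2.2e-04 and 0.00143), as were KDM2A (0.0409) and KDM5A (0.0325). KDM4D, which is expressed mainly in testis, had 31 to 48 counts with PDGF and 45 to 47 without (log2 fold change -0.52, edgeR BH-adjusted p = 0.210). KDM3A is a known target of hypoxia-inducible factor. In the same libraries a list of 16 tested hypoxia response genes had 13 genes higher and 1 lower with PDGF, with a median log2 fold change of 1.14, where 7.61% and 10.7% of all genes were called higher and lower, and whether it bears on the demethylases was not tested.

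Per kilobase of exonic sequence, the highest mean level among the 77 genes was that of HDAC2, at 123 CPM per kilobase with PDGF and 107 without. HDAC3 (64.4 and 57.8), KDM1A (43.5 and 40.4), HDAC1 (42.4 and 36.2) and EHMT2 (26.9 and 38.3) followed with PDGF, and without PDGF the same 5 genes led with EHMT2 ahead of HDAC1. Of the 7 called genes, SETD3 was the highest on this scale, at 19.8 CPM per kilobase with PDGF (rank 11) and 12.3 without (rank 20), and TET3, at 0.926 and 0.442, the lowest.

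Differences between the 2 batches were at least as large as those with PDGF for most of these genes. In a fit with PDGF and batch as terms, 22 of the 72 genes were higher and 21 lower in batch 2, where 29.3% of all genes were higher and 27.9% lower. The batch difference exceeded the PDGF difference in size for 41 of the 72. SETD1B (log2 difference 1.14), HDAC10 (0.96), KDM6B (0.86) and HDAC11 (0.85) were higher in batch 2, and TET2 (-0.73), HDAC9 (-0.70), SETD4 (-0.65) and SUZ12 (-0.60) were lower. The batch difference followed the GC content of the transcript, with r = 0.79 across the 72 genes (Spearman rho = 0.80), and the same r = 0.79 was found over 11237 tested genes. These points share the 6 libraries, and genes are not independent replicates. Genes higher in batch 2 had a median GC content of 60.0%, and those lower had one of 43.4%. The PDGF difference showed r = -0.10 with GC content across the 72 genes (Spearman rho = -0.08). Over the 11237 tested genes the PDGF difference showed r = -0.21 (rho = -0.29), a weaker trend than that of batch and in the opposite direction.

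**Figure D3:**
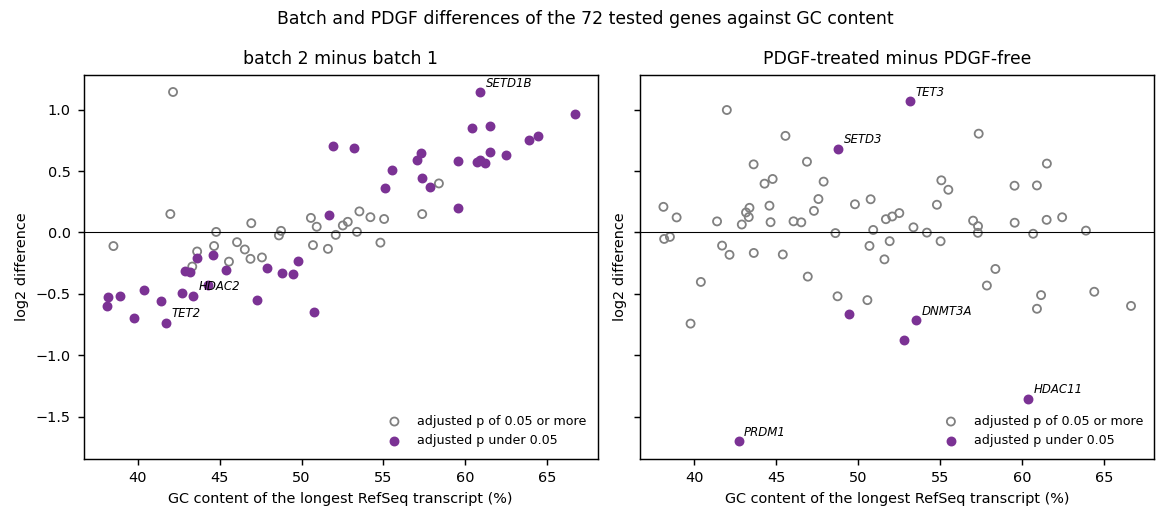
Log2 difference of the 72 tested genes between batches (left, batch 2 minus batch 1) and with PDGF (right) against the GC content of the longest RefSeq transcript in percent, filled where the edgeR BH-adjusted p was under 0.05. The left panel rises from negative values at low GC content to positive values at high GC content (r = 0.79). The right panel shows no such slope for these 72 genes (r = -0.10), while r was -0.21 over 11237 tested genes, which are not drawn.

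Since several calls rested on the block, the block was also fitted with a correction of each library for its trend over GC content and transcript length, a setting chosen after the data were seen. With it 17 of the 72 genes were higher and 20 lower, where 25.5% of all genes were higher and 30.7% lower, and the median log2 fold change of the 72 was -0.02. All 7 genes called in the first fit kept their direction and call, with PRDM1 at -1.93 and TET3 at 0.90. Of the 23 genes higher with the block, 14 were still called higher, and of the 15 lower, 14 were still lower. The calls of TET1 (edgeR BH-adjusted p = 0.139), KMT2A (0.104), SETD5 (0.058), HDAC2 (0.336), HDAC4 (0.152), KDM2A (0.565) and KDM5A (0.380) were lost, as was that of SIRT6 (0.125). For KMT2C and SUZ12 the sign turned, to log2 fold changes of -0.12 and -0.08 that were not called. The correction also added 9 calls. TET2 (log2 fold change -0.42, edgeR BH-adjusted p = 0.000335), EZH2 (-0.32, 0.0127), SUV39H2 (-0.35, 0.00824), KDM3B (-0.23, 0.00471), SIRT5 (-0.48, 0.0166) and SETD2 (-0.21, 0.0135), whose sign turned, were called lower. HDAC7 (0.19, 0.00702), KDM4B (0.24, 0.00208) and SETD1A (0.28, 0.00152) were called higher. DNMT1, SUV39H1, KMT2D, KDM5C, KDM6B, KDM1B, EZH1, EHMT2, HDAC5 and SIRT1 kept their calls from the block.

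**Figure D4:**
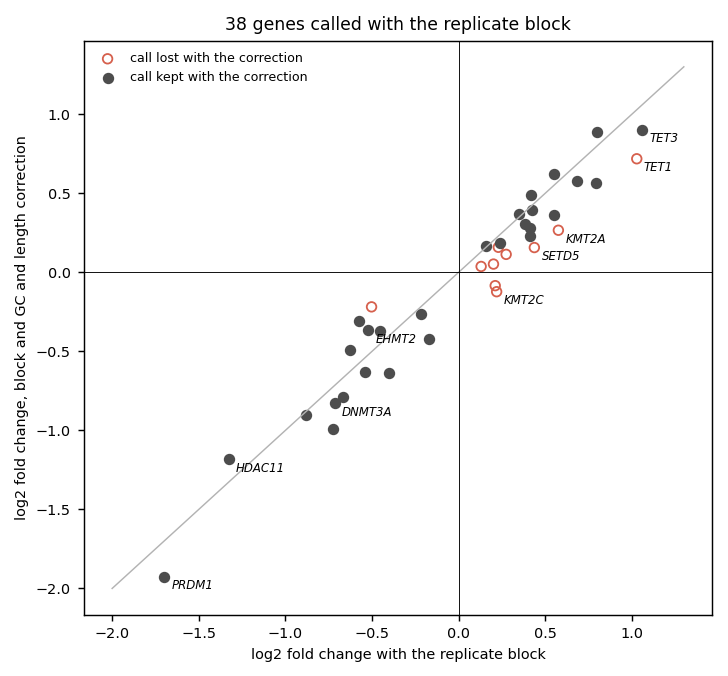
Log2 fold change (PDGF-treated over PDGF-free) of the 38 genes called with the replicate block, without (horizontal axis) and with (vertical axis) the correction for GC content and length; the line marks equal values. Filled points kept their call and open points lost it, and KMT2C (-0.12) and SUZ12 (-0.08) lie below 0 on the vertical axis.

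The partners of these enzymes gave a similar picture. In lists written by hand for histone acetyltransferases, further methyltransferases, COMPASS partners, Polycomb complex 1, accessory subunits of PRC2, corepressor subunits, readers of DNA methylation, other JmjC proteins and enzymes of methyl donor and 2-oxoglutarate metabolism, 133 genes were tested, and 4 were higher and 3 lower with PDGF, or 5.26% in all against 18.3% of all tested genes, with a median log2 fold change of 0.09. With the block, 48 were higher and 33 lower, or 60.9% against 60.1% of all genes. The acetyltransferases EP300 and NCOA3 rose (log2 fold changes 0.57 and 0.64), as did TBL1X of the NCoR corepressor (0.84), and the corepressor NCOR1 itself fell (-0.44). CBX7, a chromodomain subunit of Polycomb complex 1, fell with a log2 fold change of -1.42, and SETMAR with one of -0.91. UHRF1, which recruits DNMT1 to replicating DNA, was at 72.6, 83.4 and 83.7 CPM with PDGF and 50.7, 52.5 and 45.4 CPM without, and it rose (log2 fold change 0.69, SE 0.14, edgeR BH-adjusted p = 0.0127). In a list of 18 proliferation genes none was called in the first fit by edgeR, where 18.3% of all genes were, and 7 were higher and 1 lower with the block, or 44.4% against 60.1%. Their summed level was 1293 to 1403 CPM with PDGF and 1199 to 1254 CPM without, and the part of this difference in the values of DNMT1, UHRF1 and SUV39H1 was not tested.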

How the data were processed

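The authors deposited counts per gene symbol for 6 libraries as raw, unnormalized values. Since 13 genes held values that were not whole, the deposited values were taken to be expected counts and rounded; the plan had already named edgeR for counts. The submitters' processing notes name fastp, HISAT2 2.1.0, SAMtools and featureCounts 2.0.1 and the builds Mmul_10 and Mmul_8.0.1, so no coordinates are given, and the annotation and strand setting are not given in the sources used here. RefSeq release 103 of Mmul_10 supplied transcript length, GC content and overlaps, and it matched all 77 genes by symbol. The genes and lists were chosen with earlier results of these data known.

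PDGF-treated and PDGF-free libraries were compared with edgeR 4.0.16 (R 4.3.3): TMM, filterByExpr by group, the quasi-likelihood test without a block, and Benjamini-Hochberg adjustment over all 11539 tested genes at 0.05. The standard error was taken as |log2 fold change|/√F. Differences within a batch used 0.5 added counts. CPM were computed from the deposited counts and TMM library sizes. Same-numbered libraries correlated in their deviations with r = 0.73, 0.35 and 0.37. Differently numbered libraries within batch 2 correlated as much (0.39 and 0.36), so these values show a shared batch and do not single out pairs within batch 2. The labels tie the numbers to batches, so the number was used as a block.

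Alternatives were other normalization factors and count filters, DESeq2 1.42.0, the replicate block, a batch term, batch 2 by itself, replicates 2 and 3 summed, each library left out, and, added after the data were seen, the block with a GC and length correction (lowess, span 0.3) and the summed libraries with a batch term. Only the first fit, without a block, was run on simulated counts. These held no batch difference, so they say nothing about the fits with a block, a batch term or a correction. Named genes are all called members, the enzymes that define each class, members called with the block, those under the filter and those whose log2 fold change was 1 or more in size. UTY, KDM4D, the sirtuins and the other members of a class were named after their values were seen. Of the tested genes, 1 enters the totals but is not reported by name here. Intervals cover counting error only. Tables and plots were made in Python 3.11.15 (matplotlib 3.10.9, pandas 2.3.3, scipy 1.17.1).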

Additional observations from a re-analysis of the deposited data

How the results depend on the processing

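The number of the 72 genes called depended most on how batch was treated. Against 2 higher and 5 lower, there were 23 and 15 with the replicate block and with batch as a term, 17 and 14 in batch 2 alone, 23 and 14 with replicates 2 and 3 summed and batch as a term, and 17 and 20 with the block and the correction for GC content and length. Without a batch term, the summed libraries gave 0 higher and 1 lower. DESeq2 gave 5 higher, edgeR without normalization factors 1, and edgeR with 10 counts required in every library 0, where 4 to 5 genes were lower in each of the 3. With 1 library left out, 0 to 3 genes were higher and 1 to 7 lower. The median log2 fold change was 0.049 to 0.10 in those fits and moved to -0.025 with the block and the GC and length correction. Among the partner genes, 4 higher and 3 lower became 48 and 33 with the block. Over all tested genes, 7.61% were called higher and 10.7% lower in the first fit. The shares were 31.1% and 29% with the block, and 25.5% and 30.7% with the block and the correction. In either direction, 21.2% were called by DESeq2 and 5.78% with the summed libraries without a batch term. For the other settings the share over all genes is not given here.

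Signs turned only in genes that were not called in the first fit. All settings were followed for 47 named genes. DNMT3B was at 0.018 without normalization factors, 0.028 without a count filter, 0.012 in DESeq2, 0.0068 with the block, 0.0066 with batch as a term, 0.074 and 0.065 with the summed libraries without and with a batch term, and 0.0087 with the GC and length correction. EHMT1 was at 0.011, 0.027 and 0.0047 in the first 3 of these, 0.0012 in batch 2 alone and 0.053 with the correction. With the correction EED was at -0.027, KDM6A at -0.073, KMT2C at -0.12, SETD2 at -0.21 and SUZ12 at -0.084, and SUV39H2 was at 0.011 with the summed libraries. Outside the 47, the correction also turned KDM4A (-0.064), KDM5B (-0.12), KDM7A (-0.25), KMT2E (-0.069), KMT5B (-0.14) and SETD9 (-0.0079) negative and SIRT7 (0.18) positive. With 1 library left out the ranges were -0.12 to 0.090 for DNMT3B, -0.19 to 0.20 for EHMT1, -0.019 to 0.19 for SETD2, -0.30 to 0.082 for SUV39H2, -0.0034 to 0.43 for SUZ12 and -0.36 to 0.21 for TET2. The cause was not tested in any of these. Besides PRDM9 and PRDM13, depth limits PRDM16, DNMT3L, PRDM11, PRDM15 and HDAC8 the most, each with at most 97 counts over the 6 libraries.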
